A study of Mus musculus with 12 samples.

Results

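The vascular endothelial growth factor (VEGF) family was followed here as DNA copy number in liver tumors of Mdr2-KO/FVB mice. The family was taken as the ligand genes Vegfa, Vegfb, Vegfc and Pgf and the receptor genes Flt1, Kdr and Flt4, and its probes were chosen by these gene names. Of the 7 genes, 6 were measured, with 11 of 42235 positioned probes and as 6 of 20464 gene names. Vegfb was not analysed here.

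The series holds 12 tumors, each hybridized on 1 two-color comparative genomic hybridization array against non-tumor liver of the same mouse, with tumor DNA in red and liver DNA in green on every array. The 6 post-PHx tumors came from 9-month-old mice (4 males, 2 females) that had undergone a 70% partial hepatectomy (PHx) at 3 or 6 months of age. The 6 spontaneous tumors came from untreated mice, 2 males of 14 and 4 females of 13 months. All mice carried the Mdr2 knockout (Mdr2/KO) on the FVB background. Mdr2, now named Abcb4, encodes the phospholipid transporter of the bile canaliculus, and its loss leads to chronic liver inflammation and then hepatocellular carcinoma. Both channels of every array carried the knockout, so its own ratio could not check the labels. Tumors were selected to hold at least 90% tumor cells on sections, and the measured DNA is that of the whole tissue piece. A few cells with many copies and many cells with few copies therefore cannot be told apart.

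In this family, secreted ligands bind receptor tyrosine kinases, mostly on endothelial cells. Vegfa drives the growth of blood vessels through Kdr (VEGFR2), whereas Flt1 (VEGFR1) binds Vegfa, Vegfb and Pgf and acts largely as a decoy for Vegfa. Vegfc drives the growth of lymphatic vessels through Flt4 (VEGFR3). The liver depends on Vegfa from hepatocytes for its sinusoidal endothelium, and hepatocellular carcinomas are typically rich in arterial vessels. The arrays measured DNA, and no expression value is reported here.

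The 12 arrays lay on 3 slides of 4. Slide 1 carried PHx1M to PHx4M, slide 3 carried Spon1M to Spon4F, and slide 2 carried the remaining tumors of both groups (PHx5M, PHx6F, Spon5F and Spon6F). Between 41245 and 42329 probes per array remained after outlier-marked spots were dropped, and the spread between neighboring probes was 0.15 to 0.26 on the log2 scale, highest in Spon2M. The X chromosome signals of both channels matched the labelled sex on all arrays. All values below are log2 ratios of tumor to matched liver, centered on the autosomal median of the array, so that 0 stands for that median. A change shared by the whole genome is removed by this step, and multiples of the liver level are relative to the median. The level of a gene in a tumor was the mean over its own probes and 10 flanking probes on each side, its window, with a standard error over probes of 0.023 to 0.12. A region was called amplified or deleted where at least 2 neighboring probes shared a level of at least 0.4 in absolute value by an error-weighted interval score of at least 6. A gene was counted as called where at least 1 of every 2 of its own probes lay in such a region.

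Vegfa was amplified more than any other measured family gene, in 1 tumor of each group. Pgf was amplified in 1 spontaneous tumor and deleted in another. Vegfc, Flt1, Kdr and Flt4 lay in no called region. Of the 72 pairs of a gene and a tumor, 3 were amplified and 1 was deleted, against 1.72% and 0.684% of all pairs of a gene name and a tumor. Among the post-PHx tumors 1 of 36 pairs was amplified (2.03% of all gene names' pairs there) and none deleted (0%). Among the spontaneous tumors 2 of 36 were amplified (1.4%) and 1 was deleted (1.37%). A window level of at least 0.2 in absolute value was reached by 8 of the 72 pairs, 2 in post-PHx and 6 in spontaneous tumors, while 10.9% of all gene names' pairs reached it, 4.71% in post-PHx and 17.03% in spontaneous tumors. The family's share past 0.2 was thus near that of all gene names in both groups.

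**Figure D1:**
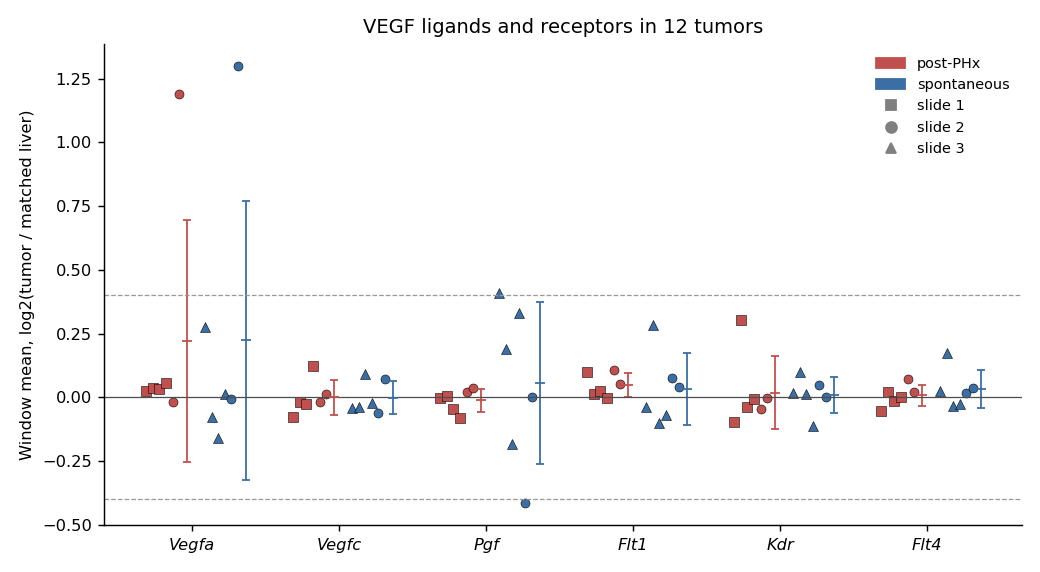
Window mean of each gene in each tumor on the log2 scale (vertical axis), by gene (horizontal axis), post-PHx tumors in red and spontaneous tumors in blue, with squares, circles and triangles for slides 1, 2 and 3. Bars give the mean ± SD of 6 tumors and dashed lines lie at 0.4 and -0.4. Vegfa stood at 1.19 in PHx6F and 1.30 in Spon6F, and apart from these the highest level was 0.41 and the lowest -0.41, both of Pgf.

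Among the ligands, Vegfa was measured by 2 probes at chr17:45480695-45491793 (build mm8), and its window spanned 0.514 Mb with 20 to 22 measured probes. In the post-PHx group its level was 1.19 in PHx6F, -0.016 in PHx5M, 0.056 in PHx4M, 0.034 in PHx3M, 0.038 in PHx2F and 0.023 in PHx1M. In the spontaneous group it was 0.28 in Spon1M, -0.078 in Spon2M, -0.16 in Spon3F, 0.012 in Spon4F, -0.0067 in Spon5F and 1.30 in Spon6F. A call at Vegfa met a background of 1.05% of gene names amplified in PHx6F and 0.64% in Spon6F. A single tumor per group thus stood far above the others, at 2.28 times the liver level in PHx6F and 2.46 times in Spon6F, and the groups overlapped. Both tumors were from females and lay on slide 2, and the other tumors of that slide, PHx5M and Spon5F, were near 0. The part of the slide in the result was not tested.

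Vegfa's own probes gave the same picture as the flanking ones. The first probe read 1.13 in PHx6F and 1.28 in Spon6F, and between -0.21 and 0.30 in the other 10 tumors. The second read 1.06 and 1.20 in these tumors, and between -0.098 and 0.47 in the others. In Spon3F, the lowest tumor by its window, the window probes ranged from -1.92 to 0.37 and the own probes averaged 0.18.

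The amplified stretches were large and ended at different places. In PHx6F the called region was chr17:40416263-51350221, 10.9 Mb with 254 probes and 126 gene names, at a mean of 0.85 ± 0.29 (SD over probes). It fell into steps, and Vegfa sat on the highest. A first piece of 32 probes up to 43090074 had a mean of 0.93. Just before the region, 13 probes at chr17:39758556-40402178 had a mean and a fitted level of 0.41, which also passed the 0.4 filter. A single probe at 0.13 parted them from the region. The piece that held Vegfa, chr17:43100812-45894664 with 76 probes, had a mean of 1.15, or 2.22 times the liver level. Beyond it, 4 probes at 0.85 were followed by 142 probes at 0.67 up to the end of the region.

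In Spon6F the called region was chr17:42512511-47553980, 5.04 Mb with 168 probes and 90 gene names, at a mean of 1.27 ± 0.26 (SD over probes), and it lay wholly inside that of PHx6F. Vegfa again sat on the higher step, chr17:42512511-46374054, whose 122 probes had a mean of 1.36, or 2.57 times the liver level. The remaining 46 probes had a mean of 1.03. The pieces outside the region were at -0.091 and at 0.071, apart from 3 probes just before it at 0.10, so that the rise and the fall were sharp. Over the same 5.04 Mb the mean of PHx6F was 0.93, and that of the other 10 tumors lay between -0.15 in Spon3F and 0.17 in Spon1M.

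Spon1M carried a further, lower rise at Vegfa, which did not reach the level of 0.4 for a call. Its 75 probes at chr17:39671905-44931910 had a mean of 0.29, and after a single probe at -1.48 the 48 probes at chr17:44988570-45894948 that held Vegfa had a mean of 0.27. Beyond them 215 probes had a mean of 0.053. The pieces that held Vegfa in PHx6F and in Spon1M, arrays of different slides, ended at neighboring but not the same probes, 284 bases apart. In PHx6F this end was a step from 1.15 to 0.85 inside the called region, and in Spon1M a fall to 0.053. The stretch common to the pieces of PHx6F, Spon6F and Spon1M was 0.906 Mb with 25 gene names. Vegfa was thus only 1 of many genes in it. The start of this stretch was set only by the single low probe of Spon1M. The Spon1M pieces on both sides of that probe had the same fitted level, 0.27. Apart from that probe, the whole PHx6F piece that held Vegfa (2.79 Mb) lay within the rises of Spon6F and Spon1M. Of all gene names, 4.11% were amplified in at least 2 tumors and 2.94% in tumors of both groups, as Vegfa was.

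**Figure D2:**
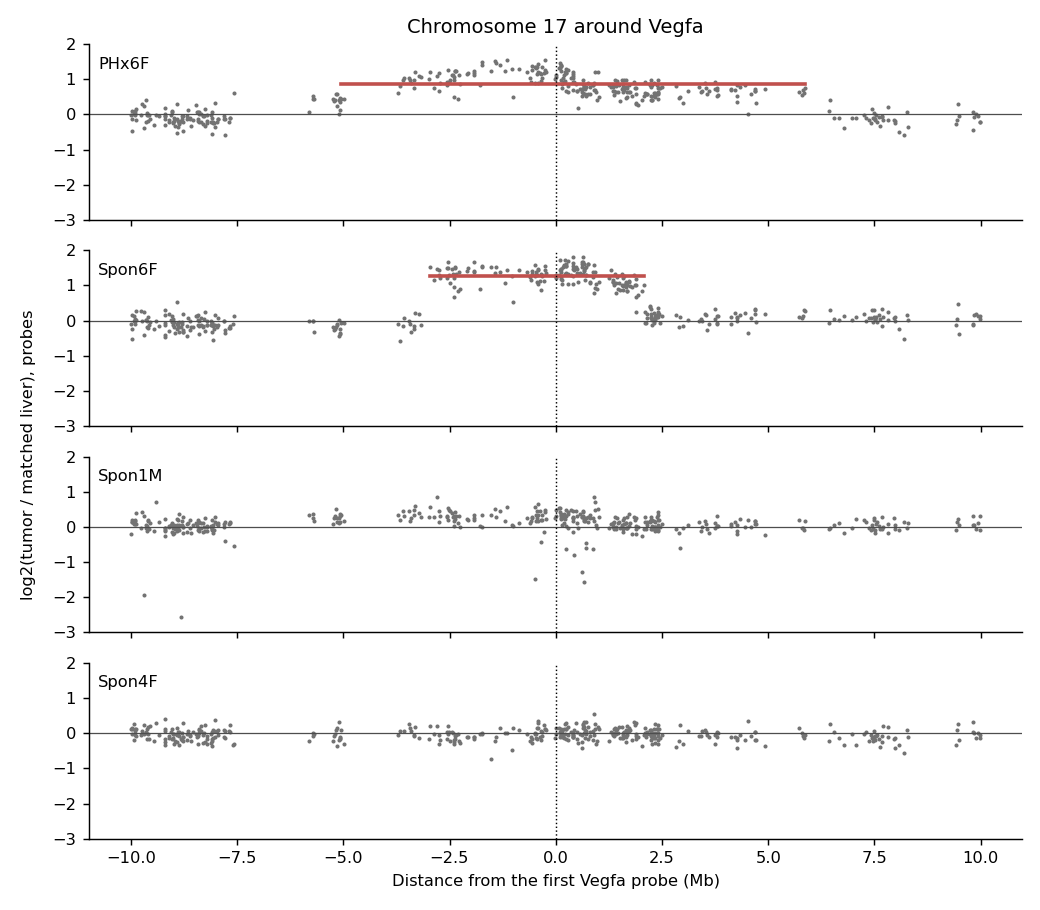
Log2 ratio of each probe (vertical axis) by its distance from the first Vegfa probe in Mb (horizontal axis) in 3 tumors with a rise at Vegfa and in Spon4F, which had none. Gray points are probes, the red line is the mean of the called region and the dotted line marks Vegfa. The region of PHx6F (mean 0.85) reached farther on both sides than that of Spon6F (1.27), and Spon1M stayed near 0.27 without a call.

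Vegfc was measured by 3 probes at chr8:55600809-55672437. Its neighborhood was poor in probes, with a window of 4.22 Mb, the widest of the family. The level ranged from -0.077 to 0.12 (median -0.016) in post-PHx and from -0.060 to 0.090 (median -0.031) in spontaneous tumors, so that the groups overlapped and no tumor was called. The highest level, in PHx4M, hid a step at the gene. The 10 flanking probes before Vegfc averaged -0.11 in this tumor, its own probes 0.32 and the 10 after it 0.27. The piece began at the first Vegfc probe and ran over chr8:55600809-64970145, with 89 probes at a mean of 0.32 (1.25 times the liver level). In Spon6F nearly the whole of chromosome 8 lay at a mean of 0.12. The own probes of Vegfc disagreed among themselves: the middle one varied over the tumors with an SD of 0.33 and was dropped as an outlier in Spon6F, while the outer ones had SDs of 0.13 and 0.12.

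Pgf, whose product placental growth factor binds Flt1 but not Kdr, was measured by a single probe of 53 bases at chr12:86060480-86060532. Its window held 21 probes over 0.372 Mb. The post-PHx tumors lay close together, with PHx6F at 0.036, PHx5M at 0.020, PHx4M at -0.082, PHx3M at -0.046, PHx2F at 0.0067 and PHx1M at -0.0026. The spontaneous tumors were 0.41 in Spon1M, 0.19 in Spon2M, -0.18 in Spon3F, 0.33 in Spon4F, -0.41 in Spon5F and 0.0019 in Spon6F. They lay on both sides of the post-PHx tumors, and 5 of the 6 lay outside their range. Among these 5, Spon3F had window probes from -1.48 to 0.16 and a fitted level of 0 at Pgf. The SD was 0.32 in the spontaneous and 0.044 in the post-PHx group, while the median SD over all gene names was 0.12 and 0.044. The wider spread in spontaneous tumors was thus shared by gene names in general, and that of Pgf was larger than 95.4% of theirs in this group.

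The changes at Pgf were parts of long stretches of chromosome 12. In Spon1M the amplified region was chr12:82999237-92215634, with 202 probes at a mean of 0.42 ± 0.16 (SD over probes), in a tumor with 7.15% of gene names amplified. In Spon4F all 1500 measured probes of the chromosome formed a single piece at 0.36, and in Spon2M 951 probes at chr12:33986412-104811636 had a mean of 0.29, and neither reached 0.4. In Spon5F the deleted region was chr12:59864966-109468692, 49.6 Mb with 802 probes and 371 gene names at a mean of -0.50 ± 0.24 (SD over probes), or 0.705 times the liver level, in a tumor with 5.5% of gene names deleted. Of all gene names, 2% were amplified in one tumor and deleted in another, as Pgf was. The level of Pgf differed from its chromosome's median by 0.064 in Spon1M, -0.085 in Spon2M, -0.028 in Spon4F and -0.11 in Spon5F.

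**Figure D3:**
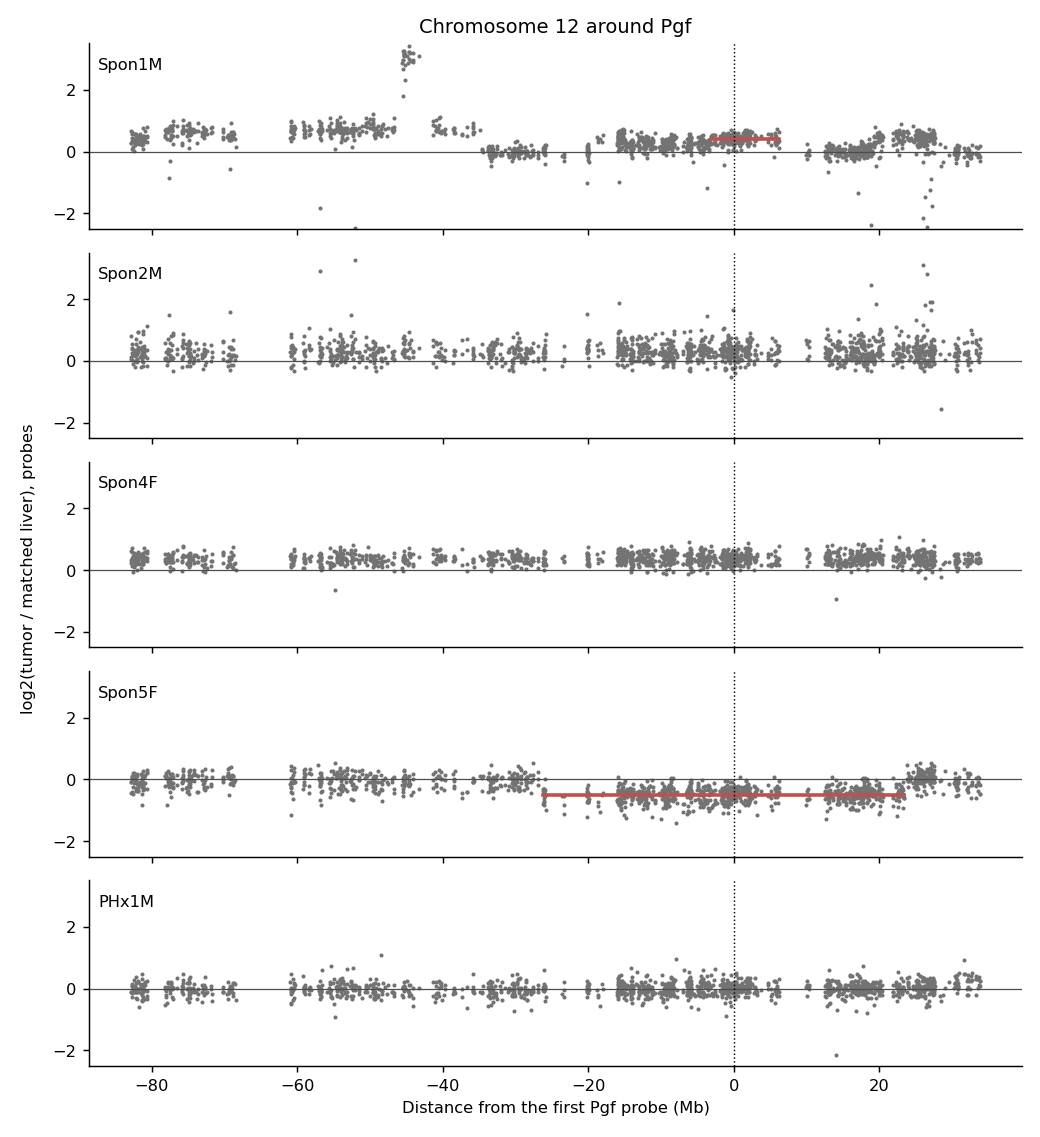
Log2 ratio of each probe of chromosome 12 (vertical axis) by its distance from the Pgf probe in Mb (horizontal axis) in the 4 spontaneous tumors with a rise or fall at Pgf and in PHx1M. Gray points are probes, the red line is the mean of the called region and the dotted line marks Pgf. Spon1M changed level many times along the chromosome, Spon4F lay at 0.36 throughout, and the fall of Spon5F to -0.50 ended on both sides.

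Pgf's own probe read lower than its flanking probes in 10 of 12 tumors, in all 6 of the post-PHx group, by a mean of -0.23 ± 0.14 (SD, n = 6) there and of -0.14 ± 0.19 (SD, n = 6) in the spontaneous group. It read -0.24, -0.24, -0.46 and -0.34 in PHx1M to PHx4M, all of slide 1, where the flanking probes averaged between -0.069 and 0.019. In the called tumors it stood with its neighbors, at 0.37 in Spon1M and -0.38 in Spon5F. As dyes were not swapped, a loss limited to this probe and an effect of the dye on it cannot be told apart. The single own probe of Kdr also read lower than its flanks in 9 of 12 tumors. The own probes of Flt1 did so in 8, of Vegfa in 6, of Vegfc in 4 and of Flt4 in 3.

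**Figure D4:**
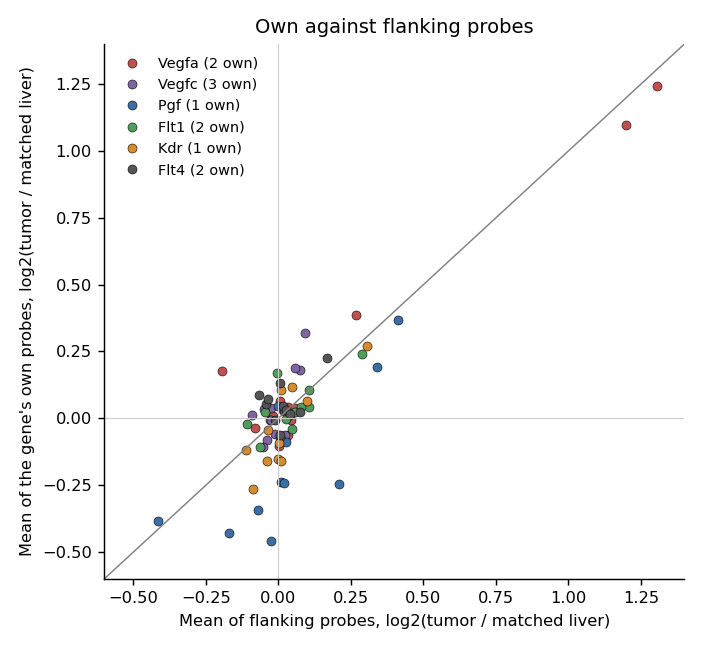
Mean of the own probes of each gene (vertical axis) against the mean of its flanking probes (horizontal axis), both as log2 ratios, with 1 point per gene and tumor and the number of own probes in the legend. The line marks equality. Vegfa lay near the line in PHx6F and Spon6F, and Pgf lay below it in 10 of 12 tumors.

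Among the receptors, Flt1 was measured by 2 probes at chr5:147956469-148018223. Its level ranged from -0.00094 to 0.11 (median 0.038) in post-PHx and from -0.10 to 0.29 (median 0.00052) in spontaneous tumors. The spontaneous tumors spanned the whole post-PHx range, and the highest was Spon2M. There the window probes ranged from -0.29 to 1.52, and the piece chr5:145068945-151015116 had a mean of 0.17 over 124 probes, below the level for a call. Flt3, the gene of another receptor tyrosine kinase beside Flt1, stood at 0.28 in Spon2M. Flt3 was inside a deleted region in Spon3F, where its window level was -0.16 and that of Flt1 -0.10 without a call.

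Kdr, whose product carries the main signal of Vegfa in endothelial cells, was measured by a single probe at chr5:76256892-76256951, 71.7 Mb from Flt1. Its level ranged from -0.097 to 0.30 (median -0.022) in post-PHx and from -0.11 to 0.098 (median 0.014) in spontaneous tumors. PHx2F was highest at 0.30 with an own probe of 0.27, and the other 5 post-PHx tumors were at or below -0.0023. The rise in PHx2F ran over chr5:73614181-89357124, 15.7 Mb with 177 probes at a mean of 0.32 (1.25 times the liver level), and stayed below 0.4. Kit and Pdgfra, genes of receptors for stem cell factor and platelet-derived growth factor that lie beside Kdr and share window probes with it, stood at 0.30 and 0.31 in this tumor. In Spon2M, Kdr and Flt1 lay in pieces of chromosome 5 with a mean of 0.17 each, and the chromosome median was 0.14. Both pieces had the same fitted level (0.16), which the caller gives to parts of a single longer stretch. Their likeness is thus not a separate observation.

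Flt4 was measured by 2 probes at chr11:49461040-49495628 and ranged from -0.052 to 0.070 (median 0.0096) in the post-PHx group, with an SD of 0.041, close to the 0.044 of Pgf. In spontaneous tumors it ranged from -0.035 to 0.17 (median 0.022). Spon2M was again highest, as part of chr11:20237587-50101285 at a mean of 0.15. Its own probes there read 0.011 and 0.44, and the spread between neighboring probes of this array was the largest of the 12.

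Over the 12 tumors, the SD of Vegfa (0.49) was larger than that of 99.1% of gene names, that of Pgf (0.22) than that of 89.2%, and those of Kdr (0.11) and Flt1 (0.10) were near the median gene name (0.0997). Vegfc (0.063) and Flt4 (0.058) varied less than most. By order of the mean level over the 12 tumors, Vegfa (0.22) stood above Flt1 (0.041), Pgf (0.022), Flt4 (0.020), Kdr (0.015) and Vegfc (-0.00038), and no pair of neighbors in this order differed by more than the larger of their SDs.

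The gene names whose levels were most like those of a family gene over the 12 tumors, among windows that shared no probe with it, lay mostly on the same chromosome. For Pgf it was Degs2, 23.1 Mb away (Pearson r = 0.99, 12 tumors), and for Flt1 it was Man2b2, 111 Mb away (0.97). On other chromosomes the closest were Nkd1 for Vegfa (0.82), Ccdc67 for Pgf (0.91), 1700034K16Rik for Kdr (0.78) and Rfc4 for Flt4 (0.95). These coefficients are descriptions over tumors that share large gains and losses, and those of Vegfa rest on PHx6F and Spon6F. Flt1 and Flt4 were highest in Spon2M, the array with the largest spread between neighboring probes, and Kdr was highest in PHx2F. The part of these single tumors in the coefficients was not tested.

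The first comparison asked whether the levels differed between post-PHx and spontaneous tumors. In a limma fit across all 20464 gene names with Benjamini-Hochberg adjustment, none of the 6 family genes differed, and neither did any gene name (0%), while 1304 gene names (6.37%) had an unadjusted p below 0.05. Vegfa had a mean of 0.22 ± 0.47 (SD, n = 6) in post-PHx and 0.22 ± 0.55 (SD, n = 6) in spontaneous tumors, a difference of -0.0035 ± 0.26 (SE; limma adjusted p = 0.999). Pgf had means of -0.011 ± 0.044 and 0.056 ± 0.32, a difference of -0.067 ± 0.12 (SE; limma adjusted p = 0.982). The differences of the other genes lay between -0.025 for Flt4 and 0.017 for Flt1, all within their standard errors. The exact two-sided permutation test over all 924 splits of the 12 tumors gave p-values from 0.557 for Flt4 to 0.989 for Vegfc, where the smallest possible was 0.0022.

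Slides 1 and 3 each held tumors of a single group, so the groups could be compared within a slide only on slide 2, with 2 tumors each. There Vegfa averaged 0.59 in post-PHx and 0.65 in spontaneous tumors, a difference of -0.061. For Pgf the difference turned to 0.23 there, and Spon5F with the deletion lay on that slide whereas Spon1M and Spon4F did not. No family gene was called on this slide alone or with the slide in the fit.

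The second comparison asked whether the 12 tumors as a whole differed from their matched livers. In the limma fit of the mean against 0, 21 gene names were higher and 62 lower at an adjusted p below 0.05 (0.406% of 20464), and none of the 6 family genes was among them. These calls were few and ended when PHx1M, PHx2F, PHx3M, PHx5M or PHx6F was left out. Vegfa had the largest mean, 0.22 ± 0.13 (SE; limma adjusted p = 0.393), with 8 of 12 tumors above 0. Without PHx6F and Spon6F the mean of Vegfa was 0.018 ± 0.034 (SE; limma adjusted p = 0.845). That setting was chosen after seeing the data and left out the tumors with amplified Vegfa. A lower mean was thus fixed in advance and is no separate test. Flt1 was at 0.041 ± 0.028 (SE; limma adjusted p = 0.483), also above 0 in 8 of 12 tumors, and at 0.018 without Spon2M. Pgf, Flt4, Kdr and Vegfc lay between 0.022 and -0.00038 with adjusted p-values of 0.628 to 0.995.

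The other genes of the pathway were read from lists of the further ligand Figf (now Vegfd), co-receptors, hypoxia regulators, signal transducers and other vascular genes. Of the 50 listed genes 47 were measured, and 9 of these lay in a called region of some tumor, while 21.1% of all gene names did. Of their 564 pairs of a gene and a tumor 8 were amplified, 6 of them in post-PHx tumors, and 3 were deleted, all in spontaneous tumors, or 1.42% and 0.532% against 1.72% and 0.684% of all gene names' pairs. The median level of the lists was -0.0033 and that of all gene names -0.0080. Both limma fits called none of the 47 genes.

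Of the 47 measured genes only Plcg1 and Src were called in more than 1 tumor, both amplified in PHx4M and Spon1M. Of all gene names, 4.11% were amplified in at least 2 tumors. Plcg1, a phospholipase that Kdr activates, stood at 0.63 in PHx4M and 0.42 in Spon1M. Src, a kinase downstream of Kdr, stood at 0.66 and 0.48. Both lie close together on chromosome 2, so their calls are not independent. They were also raised in PHx3M, at 0.41 and 0.49, without a call. The co-receptors Nrp1 and Nrp2 lay in no called region, with levels from -0.34 to 0.35. Figf, on the X chromosome, was amplified in 1 tumor, PHx4M, at 0.60, where 4.59% of gene names were amplified. Of the 8 hypoxia regulators, which govern Vegfa transcription, 1 was amplified and 1 was deleted in a single tumor each. Of all gene names, 21.1% lay in a called region of some tumor. Both regulators are named here after their values were seen. The amplified one was Egln2 in PHx3M at 1.04, the highest level of the lists. In PHx3M 3.36% of gene names were amplified. The deleted one was Hif1a on chromosome 12 in Spon5F at -0.47, within the region that also held Pgf. In Spon5F 5.5% of gene names were deleted. Of 23 measured signal transducers 5 were called in some tumor, and of 13 other vascular genes 1, against the 21.1% of all gene names.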

How the data were processed

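The authors deposited the Feature Extraction (10.5.1.1) output of 12 two-color Agilent arrays with mouse probes placed on build mm8. The deposited log10 ratio of each spot is that of the red (tumor) over the green (liver) processed signal, whose intensities had been background-subtracted, detrended and dye-normalized by that program when the authors deposited them. The deposited error of each ratio is a score of that software's error model, used here only as a probe weight. The authors' own calls, made with ADM-2 in CGH Analytics, were not used.

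Ratios were put on the log2 scale, outlier-marked spots were dropped, spots of a probe were averaged and arrays were centered on the autosomal median, with no further normalization. Of 132 pairs of a family probe and an array, 131 were measured, all well above background in both channels. Gene windows held own probes and 10 flanking probes on each side, and 60 gene names on several chromosomes or spanning over 3 Mb were left out. Regions were called by an ADM-2-like, error-weighted interval score (threshold 6, at least 2 probes, absolute level of at least 0.4). The tests were limma 3.58.1 (R 4.3.3) on all gene names, for the groups and for tumors against liver, and exact permutation tests for the groups. Caller and fits were tested on simulated data. The number of arrays limits the precision. Genes, pathway lists and tests were chosen with earlier results of these data known. Named genes were the family, list genes called in at least 2 tumors or by a fit, Flt3, Kit and Pdgfra, and the gene names of most like pattern. Figf, Nrp1, Nrp2, Egln2 and Hif1a fall outside this rule and were named after their values were seen. Alternatives changed the score, filter, probe number, weights, window, background correction, centering, spot filters, blocks, covariates and tumors. No genome of build mm8 was used, so exon and intron positions were not analysed here.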

Additional observations from a re-analysis of the deposited data

Results flagged for a closer look

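In 4 of the 12 sets of 6 tumors (6 genes in each group), 1 tumor stood apart from the rest of its group by Dixon's test, which flags about 1 set in 20 by chance. Over all gene names the test flagged 16.4% of such sets, 16.9% in post-PHx and 16% in spontaneous tumors. Vegfa stood apart in both groups, at 1.19 in PHx6F, where the next tumor was at 0.056, and at 1.30 in Spon6F, where the next was at 0.28. Kdr stood apart in PHx2F at 0.30, with the next tumor at -0.0023. Flt4 stood apart in Spon2M at 0.17, with the next tumor at 0.038. Spon2M was the array with the largest spread between neighboring probes, 0.26 on the log2 scale, and the part of that spread in its value was not tested.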

How the results depend on the processing

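A filter of 0.25 raised the called pairs of the family from 4 to 9, and a filter of 0.6 lowered them to 2, both of Vegfa. At 0.25 Vegfc was amplified in PHx4M and Kdr in PHx2F, Vegfa also in Spon1M and Pgf also in Spon2M and Spon4F. The shares of all gene names called at these filters are not given here, so these counts have no background. The other 11 alternatives gave 4 called pairs, in the same tumors. No family gene was called under any of 28 alternatives for the groups or 25 for tumors against liver, which included leaving out each tumor. Over all gene names the tumor to liver counts moved from 21 higher and 62 lower to 1675 and 1473 with own probes only, to 282 and 1207 after normexp correction, and to none with the median of the window or the segment level. Leaving out PHx1M, PHx2F, PHx3M, PHx5M or PHx6F singly also ended all these calls, while without Spon2M there were 104 and 168 and without Spon6F 2 and 8. The replicate block left 0 calls. The labels tie nothing but a number to same-numbered tumors, and the numbers did not pair them throughout. The deviations from the group means correlated at 0.55 for number 6 (PHx6F and Spon6F, both females on slide 2, with amplified Vegfa) and at -0.17 to -0.013 for the other numbers, of which number 5 also shared slide 2. Of the 6 post-PHx tumors 1, PHx6F, was most like its own number.

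Some group differences changed sign, and none of them was called under either setting. With own probes only, Kdr was -0.079, and with 5 flanking probes Kdr was -0.0073 and Vegfc -0.0016. Without centering, Vegfc was -0.010 and Kdr -0.0025. With the median Flt1 was -0.010, and with the segment level Flt1 was -0.015 and Flt4 0.0017. Vegfa was 0.023 after normexp correction, 0.0039 with centering on the mode, 0.13 with sex as a covariate (Flt1 -0.010) and 0.018 without PHx6F and Spon6F, a setting chosen after seeing the data. With the slide as a block, or on slide 2 alone, Pgf was 0.23, Flt4 0.017, Vegfc -0.0078 and Kdr -0.048. Leaving out each tumor gave group differences of -0.20 to 0.21 for Vegfa, -0.024 to 0.019 for Vegfc, -0.16 to 0.0036 for Pgf, -0.010 to 0.067 for Flt1, -0.048 to 0.032 for Kdr and -0.038 to 0.0030 for Flt4.

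Against liver, own probes only gave -0.15 for Pgf, -0.033 for Kdr and 0.038 for Vegfc, and 5 flanking probes gave -0.00094 for Pgf and 0.0028 for Vegfc. Vegfc was also 0.0024 with the median, 0.046 with the segment level and 0.0019 with centering on the mode. Leaving out each tumor gave 0.12 to 0.26 for Vegfa, without a call, -0.012 to 0.0066 for Vegfc, -0.013 to 0.062 for Pgf, -0.011 to 0.026 for Kdr, 0.018 to 0.053 for Flt1 and 0.0061 to 0.026 for Flt4, the lowest of Flt1 and Flt4 without Spon2M and that of Kdr without PHx2F. Without PHx6F the mean of Vegfa was 0.13 and without Spon6F it was 0.12. The causes of these changes were not tested.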
